A study of Macaca fascicularis with 44 samples.

Results

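CCNB1, CCNE1 and CDK7 encode cyclin B1, cyclin E1 and cyclin-dependent kinase 7. These 3 of the 21834 genes in the count table were chosen by their measured counts: their levels were high in extravillous trophoblast (EVT) while those of other mitosis genes were not. Levels across cell classes are therefore given as a description, without a test. The data were RNA counts of 3682 single cells of cynomolgus monkey embryos (Macaca fascicularis), in 44 libraries from 9 embryos. All embryos were wild type, made by injecting sperm into oocytes and grown in culture from the blastocyst, and were taken on embryonic days E16 to E25. The inner parts of the embryos were kept after dissection and digested with TrypLE to single cells, so the trophoblast measured is what that dissection left behind. The authors' annotation placed 566 cells in EVT and 549 in cytotrophoblast (CTB), the class that EVT is set against here.

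Cyclins are the regulatory partners of the cyclin-dependent kinases (CDKs). Cyclin E1 binds CDK2 at the entry into DNA replication, and cyclin B1 binds CDK1 at the entry into mitosis, after which it is destroyed. CDK7, with cyclin H (CCNH) and MNAT1, forms the CDK-activating kinase, which phosphorylates other CDKs and, as a part of the transcription factor TFIIH, RNA polymerase II. CTB are the dividing progenitors of the placenta, and EVT are the cells that leave this pool and invade the uterine wall. In the human placenta EVT are known to stop dividing, and part of them become polyploid. MKI67 marks cells in any phase of active cycling.

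Library totals ran from 4393315 to 30568931 counts, with a median of 110458 counts per cell. EVT cells had a median of 71638 counts, against 169540 in CTB cells. Levels are in CPM, a gene's counts scaled to the same total in every library, class or cluster. Of 13 EVT markers, 11 lay above 10 CPM in EVT, among them LAIR2 (10562 CPM in EVT, 238 in CTB), PLAC8 (1662 and 80.1), NOTUM (1328 and 54.1) and HTRA4 (1098 and 20.3), while ASCL2 (2.87 CPM) and PAPPA2 (0.205 CPM) were near 0 in EVT. The number above 10 CPM was 11 in syncytiotrophoblast, 10 in extraembryonic mesenchyme (EXMC) and 9 in CTB, so it does not set EVT apart. FN1 (1896 CPM in EVT, 4914 in EXMC), TIMP3 (285 and 291) and ADAM12 were higher in EXMC than in EVT. The other EVT markers above 10 CPM in EVT had their highest level of all classes there. Summed over 8 markers of EXMC, the EVT cells of single libraries held 216 to 19685 CPM, a range that is taken up with the clusters and days. All libraries of 1 day after E16 came from a single embryo, so day and embryo cannot be told apart. Libraries 26 and 27 carry labels that name different days and were left out of everything by day, and library 27 counts in comparisons within libraries.

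CCNB1 had its highest pooled level in EVT, at 858 CPM over all EVT cells pooled. CTB followed with 344 CPM and Neural ectoderm with 332 CPM, and the other 9 classes ran down to 90.6 CPM in EXMC. Over the 22 libraries with at least 10 EVT cells, CCNB1 ranged from 104 to 1296 CPM with a median of 721 CPM. Over the 22 libraries with at least 10 CTB cells it ranged from 116 to 529 CPM with a median of 329 CPM. The EVT libraries were thus spread far more widely than the CTB libraries, and both ranges overlapped. Neural ectoderm, with library values of 128, 379 and 454 CPM, did not stand apart from CTB.

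CCNE1 was highest in the 3 trophoblast classes. Its pooled level was 732 CPM in EVT, 512 CPM in syncytiotrophoblast (STB) and 352 CPM in CTB, and 18.5 to 64.6 CPM in the other 9 classes. EVT libraries ran from 90.9 to 1386 CPM with a median of 533 CPM, against 139 to 588 CPM with a median of 324 CPM in CTB libraries. The STB level rests on few cells: the only 2 libraries with at least 10 STB cells held 57.7 and 638 CPM.

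CDK7 showed the same order of trophoblast over embryonic classes. Its pooled level was 548 CPM in EVT, 278 CPM in CTB and 120.0 CPM in STB, with 34.8 to 58.8 CPM in the 9 other classes. EVT libraries ran from 81.1 to 943 CPM (median 466.1 CPM), and CTB libraries from 141 to 476 CPM (median 257 CPM). Pooling weights deep cells more: as a mean over single cells CDK7 stood at 348 CPM in EVT and 266 CPM in CTB, so that the EVT value depends on the weighting by more than 1.5 times. CCNB1 and CCNE1 stood at 608 and 556 CPM in EVT by that mean.

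MKI67 had another order. Its pooled level was 93.5 CPM in EVT, 160.0 CPM in CTB, 352 CPM in Neural ectoderm and 374 CPM in the 17 Blood cells, the highest. It was 66.3 CPM in EXMC, 71.5 CPM in STB, 72.5 CPM in Extraembryonic Mesoderm, 89.9 CPM in EPI and 92.0 CPM in Endoderm, all below EVT. EVT held 9.17 counts of CCNB1 for each count of MKI67, against 2.15 in CTB and 0.643 to 2.01 in the other classes. The same ratio for CCNE1 was 7.82 in EVT, 7.15 in STB and 2.20 in CTB, and for CDK7 it was 5.86 in EVT, 1.74 in CTB and 1.68 in STB. When every cell was thinned to 19000 counts, MKI67 was seen in 40.6% of 401 EVT cells (95% exact binomial interval 35.8 to 45.6) and 66.0% of 529 CTB cells (61.8 to 70.0). At that depth CCNB1 was seen in 84.3% of EVT cells (80.4 to 87.7) and 83.6% of CTB cells (80.1 to 86.6), 2 shares whose intervals overlap. The mean number of CCNB1 counts per thinned cell was 14.3 in EVT, 6.38 in CTB and 1.46 in EXMC. Intervals of shares cover counting error only. Thinning left out 165 of 566 EVT cells and 20 of 549 CTB cells, so more of the shallow cells are missing from the EVT values.

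**Figure D1:**
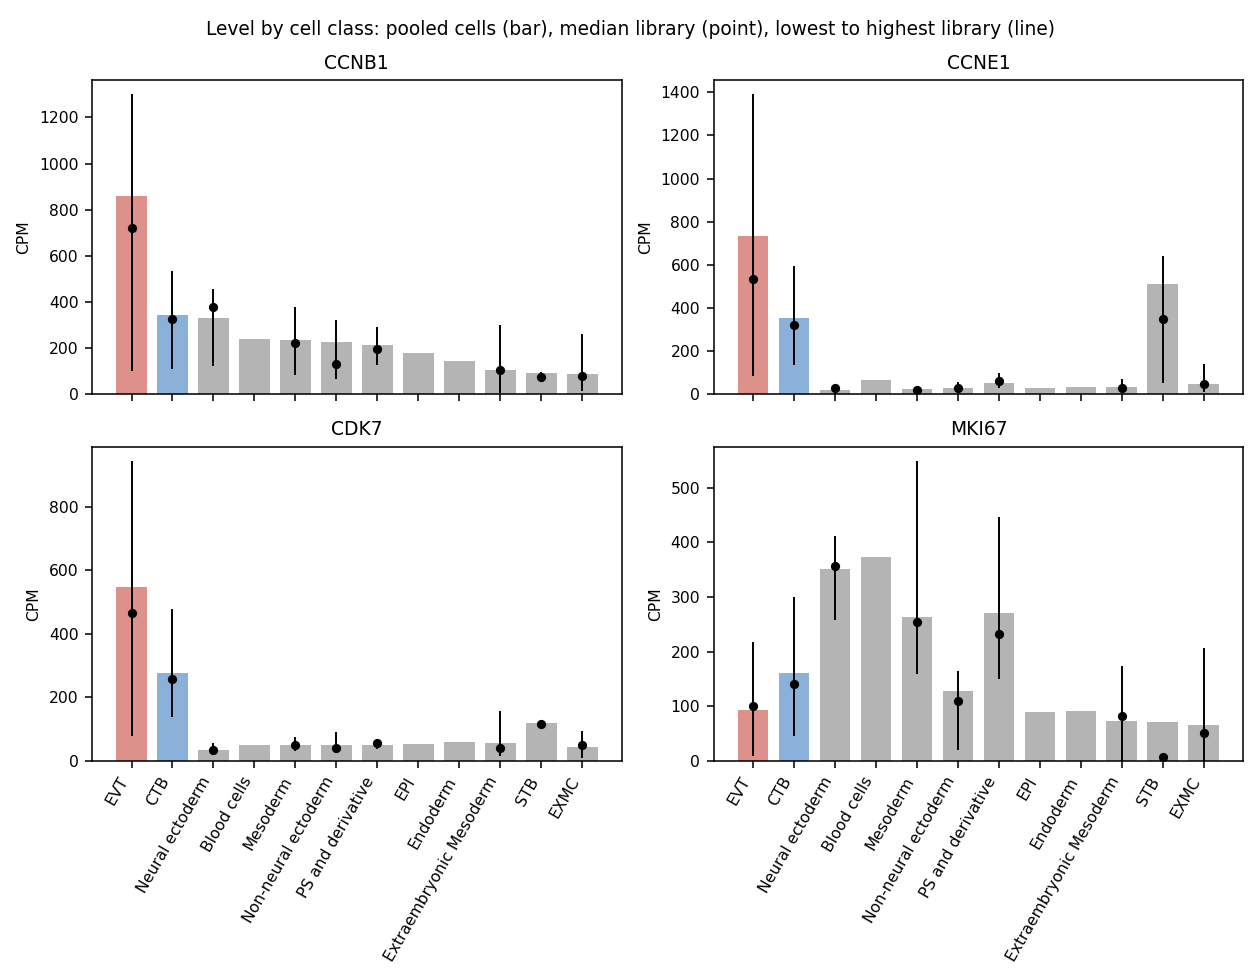
Level of CCNB1, CCNE1, CDK7 and MKI67 in CPM (y axis) in the 12 cell classes (x axis), with bars for pooled cells, points for the median library and lines from the lowest to the highest library of at least 10 cells. EVT is highest for CCNB1 (858 CPM), CCNE1 (732 CPM) and CDK7 (548 CPM) and stands in the middle of the classes for MKI67 (93.5 CPM), and classes with no point have no library of 10 cells.

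Within libraries, EVT lay above CTB for the cyclins and CDK7 in most but not all pairs. Among the 19 libraries with at least 10 cells of both classes, CCNB1 was higher in EVT in 16, with a median log2 difference of 0.97 (range -0.70 to 2.07). CCNE1 was also higher in EVT in 16 libraries (median 0.92, range -0.93 to 1.79), and so was CDK7 (median 0.96, range -1.24 to 1.49). For CCNB1 the 3 exceptions were the 3 libraries of E25, with 370, 104 and 133 CPM in EVT against 434, 116 and 216 CPM in CTB. Libraries 17 and 22 of E25 were exceptions for all 3 genes. MKI67 went the other way and was higher in EVT in 3 of the 19 libraries, 2 of E23 and 1 of E25. The fit over the same libraries gave log2 differences of 0.89 ± 0.15 (SE, n = 19) for CCNB1, 0.89 ± 0.15 for CCNE1 and 0.73 ± 0.17 for CDK7. Within single library codes, the 8-digit codes in the labels that group the libraries, these differences were 0.47 to 1.53, 0.33 to 1.37 and 0.23 to 1.22. For the libraries of E23 the cell names carry another code, and the code of the labels was used.

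None of CCNH, MNAT1, CDK1 and CDK2, the direct partners of these genes, passed as higher in EVT than in CTB. CDK1 is a mitosis gene, so its lack of a higher call was part of the choice. CCNH and CDK1 were named after their values were seen. In the fit of EVT against CTB 36.3% of 13371 genes passed an adjusted p of 0.05 (edgeR quasi-likelihood test), 19.8% higher and 16.5% lower in EVT. With that share, so few genes without a higher call do not set the partners apart from other genes. The classes may have been named from the same counts, so the counts of lists that follow are descriptions. Of 9 measured genes of the CDK-activating kinase, TFIIH and the transcription kinases, 0 passed as higher and 3 as lower: ERCC3 (log2 -0.62 ± 0.13) and ERCC2 (-0.66 ± 0.23), the helicases of TFIIH, and MNAT1 (-0.59 ± 0.23), the assembly factor of the CDK7 complex. CCNH, the cyclin of CDK7, stood at 105 CPM in EVT and 94.3 CPM in CTB (log2 0.18 ± 0.15, not past the threshold). The median over this list was 0.03, beside 0.04 over all genes tested.

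Of 14 tested genes of G1 and the entry into S phase, 2 were higher in EVT and 6 lower. CCND2, a D-type cyclin, was higher (log2 2.49 ± 0.28), at 44.8 CPM in EVT and 11.6 CPM in CTB. RB1, the retinoblastoma protein that holds cells before S phase, was also higher (1.80 ± 0.25), at 221 CPM in EVT and 52.1 CPM in CTB. CDK2, the partner of cyclin E, was lower (-0.84 ± 0.13), at 281 CPM in EVT and 439 CPM in CTB, and so were CDK6 (-1.45 ± 0.25), CDK4 (-0.62 ± 0.13), the G1 kinases that D-type cyclins bind, and SKP2 (-0.58 ± 0.14), a subunit of the ubiquitin ligase that removes CDK inhibitors. CCNE2, the other cyclin E, stood at 11.2 CPM in EVT and 26.6 CPM in CTB and was lower as well (-1.12 ± 0.32). The median over this list was -0.50.

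Genes of DNA replication were lower in EVT in 15 of 17 cases and higher in 0 (median log2 -0.69). The MCM helicase subunits MCM4 (-1.15 ± 0.13) and MCM2 (-1.11 ± 0.20), the helicase loader CDC6 (-1.02 ± 0.18) and the thymidylate synthase TYMS (-0.72 ± 0.12) had the smallest adjusted p. RRM2, the small subunit of ribonucleotide reductase, was highest in EVT of all classes by its pooled level, at 391 CPM against 302 CPM in CTB, but within libraries its difference was -0.03 ± 0.16 (edgeR adjusted p = 0.904). Among the mitosis genes, whose low level in EVT was part of the choice, 24 of 32 were lower and 1, the ubiquitin-conjugating enzyme UBE2C (0.45 ± 0.16), was higher (median -0.71). CCNB2, the other cyclin B, stood at 59.2 CPM in EVT and 117 CPM in CTB, and CDK1, the partner of both, at 162 and 236 CPM in the same order. Of 11 tested inhibitors of CDKs and regulators of repeated replication, 2 were higher and 3 lower, beside 19.8% and 16.5% of all genes. The INK4 inhibitors CDKN2C (3.23 ± 0.49, 8.51 CPM in EVT and 1.25 CPM in CTB) and CDKN2D (1.57 ± 0.28, 18.2 and 6.04 CPM) were higher. CDKN2B, another INK4 inhibitor (-1.58 ± 0.23), FBXO5, which inhibits the anaphase-promoting complex (-0.81 ± 0.18), and the atypical E2F repressor E2F8 (-1.0 ± 0.29) were lower. CDKN2C is low in both classes, so its fold depends on few counts.

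**Figure D2:**
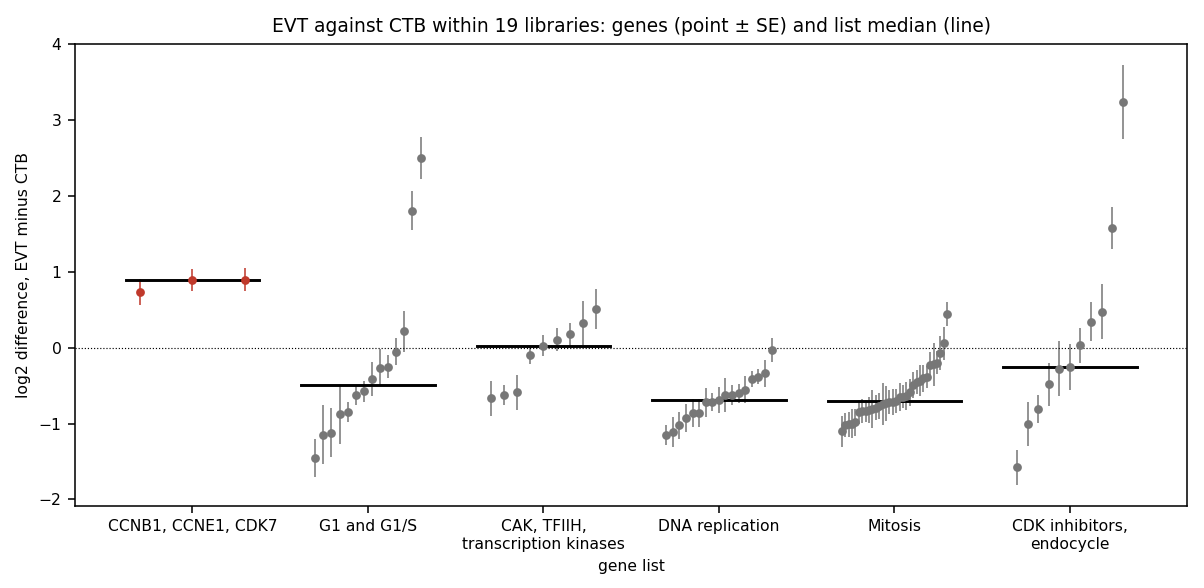
Fitted log2 difference between EVT and CTB within 19 libraries (y axis, positive where EVT is higher) for each tested gene of 6 lists (x axis), with points and SE for genes and black lines for list medians. CCNB1, CCNE1 and CDK7 sit between 0.73 and 0.89, while the medians of replication (-0.69) and mitosis (-0.71) lie below 0.

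Within EVT, 2 of the 5 fine clusters carried most of these transcripts. Clusters 19 and 13, numbered as in the authors' annotation at resolution 2, ranked first and second of all 26 clusters for CCNB1, CCNE1 and CDK7. Cluster 19 (84 cells, all of E20) held 1289 CPM of CCNB1, 1086 CPM of CCNE1 and 894 CPM of CDK7, and cluster 13 (135 cells) held 1224, 1009 and 610 CPM in the same order. Clusters 7, 18 and 23 held 251, 231 and 119 CPM of CCNB1. Together clusters 13 and 19 made up 38.7% of EVT cells and 62.8% of EVT counts, and held 92.5% of the CCNB1 counts, 90.6% of those of CCNE1 and 89.8% of those of CDK7. The clusters were built from the same counts, so no test is given.

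The split was also seen inside libraries of E18, E20 and E24 and in library 27. No library of E23 or E25 had enough cells of both kinds for this comparison. Of 11 libraries with at least 5 cells of clusters 13 or 19 and 5 of the other EVT clusters, CCNB1 was higher in clusters 13 and 19 in all 11, at 951 to 1608 CPM (median 1310.4 CPM) against 17.8 to 720.2 CPM (median 96.3 CPM). CCNE1 ran from 580 to 1548 CPM in clusters 13 and 19 and from 19.6 to 445 CPM in the others, and CDK7 from 477 to 1087 CPM against 77.2 to 457 CPM. None of these ranges overlapped. MKI67 was higher in clusters 13 and 19 in 10 of the 11 libraries, with medians of 123 CPM against 3.99 CPM, so MKI67 too was higher there.

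In pooled cells MKI67 gave the clusters another order. It was 145 CPM in cluster 19, 73.9 CPM in cluster 13, 151 CPM in cluster 7, 70.6 CPM in cluster 18 and 12.6 CPM in cluster 23, the lowest of all 26 clusters. The order of clusters 7 and 19 depends on the pooling. As a mean over single cells MKI67 was 111 CPM in cluster 7 and 150 CPM in cluster 19. In the E20 embryo, which holds all of cluster 19, pooled MKI67 was 70.8 CPM in cluster 7 and 145 CPM in cluster 19. Cluster 13, with CCNB1 at 1224 CPM, was at rank 17 of 26 for MKI67. CCNB2, the cyclin most like CCNB1 in function, was 97.1 CPM in cluster 19, 35.2 CPM in cluster 13, 114 CPM in cluster 7 and 3.62 CPM in cluster 23.

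The 3 EVT clusters with low levels differed from each other in depth and in markers. Cluster 7 (196 cells, 130 of them of E23) was shallow, with a median of 10200 counts per cell against 134750 in cluster 13 and 336670 in cluster 19. It also held 3413 CPM of the 7 measured CTB markers. Their sum was 4209 CPM in CTB itself, 795 CPM in cluster 13 and 648 CPM in cluster 19. PAGE4 alone made up 3997 CPM of the sum in CTB, and STB, where PAGE4 was highest, summed to 4334 CPM. Of these 7 markers, 3 lay above 10 CPM in cluster 7, against 6 in CTB and 3 in STB. Cluster 7 held 6600 CPM of the 8 EXMC markers. Cluster 18 (87 cells) held 21197 CPM of the EXMC markers, against 1070 CPM in cluster 13 and 34984 CPM in EXMC itself. Cluster 23 (64 cells) held 40838 CPM of the 13 EVT markers, against 23116 CPM in cluster 13 and 9195 CPM in cluster 19. The EVT cells with the highest sum of these markers thus had low CCNB1 (119 CPM), CCNE1 (182 CPM) and CDK7 (175 CPM). LAIR2 alone made up 10562 of the 18826 CPM of this sum over all EVT cells. Above 10 CPM lay 11 of the 13 markers in each of clusters 7, 13 and 23. Cluster 23 had a median of 144960 counts per cell and 1745 CPM of EXMC markers. The part of depth or of RNA of CTB or EXMC in these levels was not tested.

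**Figure D3:**
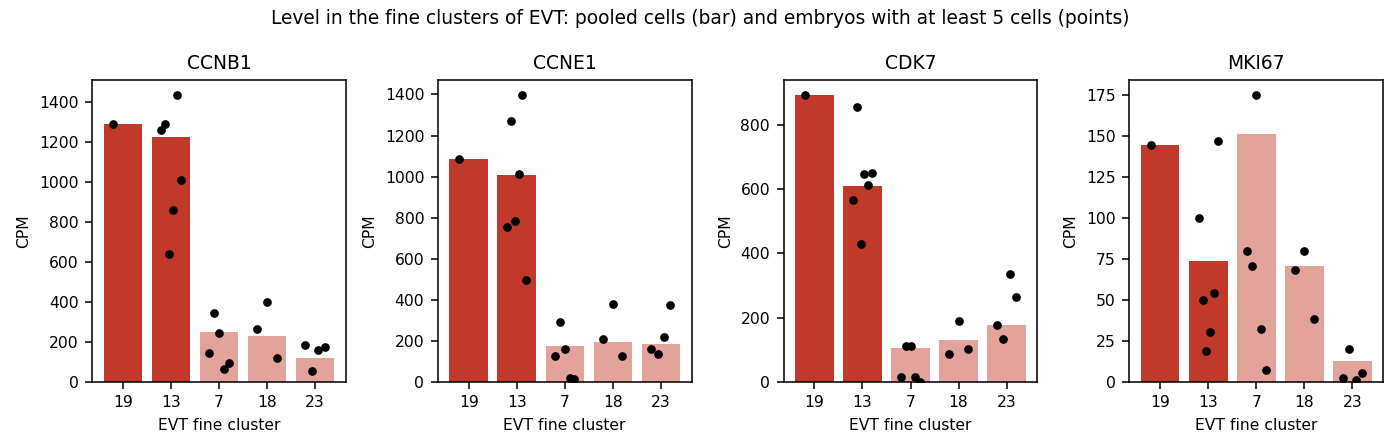
Level in CPM (y axis) of CCNB1, CCNE1, CDK7 and MKI67 in the 5 EVT fine clusters (x axis), with bars for pooled cells and points for embryos with at least 5 cells of the cluster. Clusters 19 and 13 are high for the cyclins and CDK7 (CCNB1 1289 and 1224 CPM). For MKI67 the pooled level of cluster 7 (151 CPM) is as high as that of cluster 19 (145 CPM), but in the E20 embryo cluster 7 is lower (70.8 CPM).

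Next, levels were compared in the same cells by whether MKI67 was detected, a split that the choice of genes had not used. MKI67 had at least 1 count in 289 EVT cells and none in 277. The 2 kinds of cells differed in their clusters. Detected and undetected cells numbered 78 and 57 in cluster 13 and 76 and 8 in cluster 19. They numbered 77 and 119 in cluster 7, 36 and 51 in cluster 18, and 22 and 42 in cluster 23. The part of this make-up in the differences that follow was not tested. In 20 libraries with at least 5 EVT cells of each kind, CCNB1 ran from 66.1 to 1435 CPM (median 815 CPM) in MKI67-detected cells and from 26.6 to 2215 CPM (median 480.2 CPM) in undetected cells, and was higher in detected cells in 14. The fitted log2 difference was 0.69 ± 0.26 (SE, n = 20 libraries) and did not pass (edgeR quasi-likelihood test, adjusted p = 0.146). In this fit 2.6% of 11381 genes passed, 1.88% as higher in MKI67-detected cells. CCNE1 (0.24 ± 0.17, adjusted p = 0.526, same edgeR test) and CDK7 (0.09 ± 0.19, adjusted p = 0.878) did not pass either. MKI67-detected EVT cells were deeper, with a median of 151880 counts against 24721 in undetected cells, and with all cells thinned to 19000 counts the CCNB1 difference was 0.21 (adjusted p = 0.572 by edgeR, 13 libraries).

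The same split did move the genes of mitosis in EVT. Of 31 tested, 26 were higher in MKI67-detected EVT cells and 0 lower (median log2 1.77, beside 0.05 over all genes). The motor KIF11 (2.6 ± 0.31), the checkpoint kinase BUB1 (1.98 ± 0.26), the topoisomerase TOP2A (2.52 ± 0.33) and the spindle midzone protein PRC1 (2.06 ± 0.29) had the smallest adjusted p (edgeR, 5.5e-07 to 1.1e-05). CCNB2 rose by 1.71 ± 0.38 (adjusted p = 0.0063, edgeR) and CDK1 by 1.98 ± 0.29 (adjusted p = 3.4e-05). Of 17 replication genes, 10 were higher, led by ORC1, a subunit of the origin recognition complex (2.23 ± 0.44), and MCM3 (1.54 ± 0.32), CDC6 (1.77 ± 0.40) and MCM6 (1.33 ± 0.32). Of the G1 list, CCNE2 (2.90 ± 0.71), the other cyclin E, and the phosphatase CDC25A (1.57 ± 0.43) rose, 2 of 14. In the list of CDK7 partners 0 of 9 passed in either direction, and among the inhibitors 1 of 10, CDKN2B (1.49 ± 0.42).

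In CTB, CCNB1 did go with MKI67. Over 12 libraries with at least 5 CTB cells of each kind it ran from 266 to 541 CPM (median 383 CPM) in MKI67-detected cells and from 40.4 to 456 CPM (median 141 CPM) in undetected cells, and was higher in detected cells in 10. The log2 difference was 1.18 ± 0.22 (edgeR, n = 12 libraries, adjusted p = 0.00786), in a fit where 0.706% of 10478 genes passed, 0.573% as higher. CCNE1 (0.03 ± 0.17, adjusted p = 0.961) and CDK7 (-0.07 ± 0.20, adjusted p = 0.924) did not pass in CTB (edgeR). Of the mitosis genes 14 of 31 were higher, among them the spindle factor TPX2 (2.20 ± 0.27), the cytokinesis motor KIF23 (2.28 ± 0.35), DLGAP5 (1.90 ± 0.32) and TOP2A (1.51 ± 0.29). Of 17 replication genes 1 (TYMS, 0.67 ± 0.15) and of 9 inhibitors 1 (FBXO5, 1.5 ± 0.28) passed as higher. MKI67-detected CTB cells had a median of 191680 counts, against 92515 in undetected cells, and after thinning the CCNB1 difference was 0.75 (adjusted p = 0.00199 by edgeR, 16 libraries).

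The smaller CCNB1 difference in EVT was not shown to differ from that in CTB. The joint fit gave EVT minus CTB of -0.69 ± 0.39 for CCNB1 (edgeR, 23 libraries, adjusted p = 0.631), 0.12 ± 0.26 for CCNE1 and 0.02 ± 0.30 for CDK7. In this fit 0 of 11993 genes passed (0%), with 1085 at an unadjusted p under 0.05, and DESeq2 called 27. As a description, thinned EVT cells with MKI67 held a mean of 17.98 CCNB1 counts, against 11.7 in EVT cells without it. In CTB these means were 7.64 and 3.93, in EXMC 3.64 and 0.648, and in Mesoderm 5.50 and 1.05. The mean of 11.7 was unevenly spread over the EVT clusters. Cells without MKI67 held 19.9 counts in cluster 13 and 28.8 in cluster 19, but 4.97 in cluster 7, 3.40 in cluster 18 and 2.61 in cluster 23. The last 3 lay below MKI67-detected CTB and Mesoderm cells. All 3 lay above undetected Mesoderm and EXMC cells, and cluster 7 also above undetected CTB cells. MKI67-detected cells held 28.7 counts in cluster 13, 6.13 in cluster 18 and 6.0 in cluster 23 (6 cells). In clusters 7 (2.97) and 19 (23.1) detected cells held fewer counts than undetected ones. CCNB2 gave 1.35 counts in MKI67-detected EVT cells and 0.408 in undetected ones, and 1.99 and 1.48 in CTB.

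**Figure D4:**
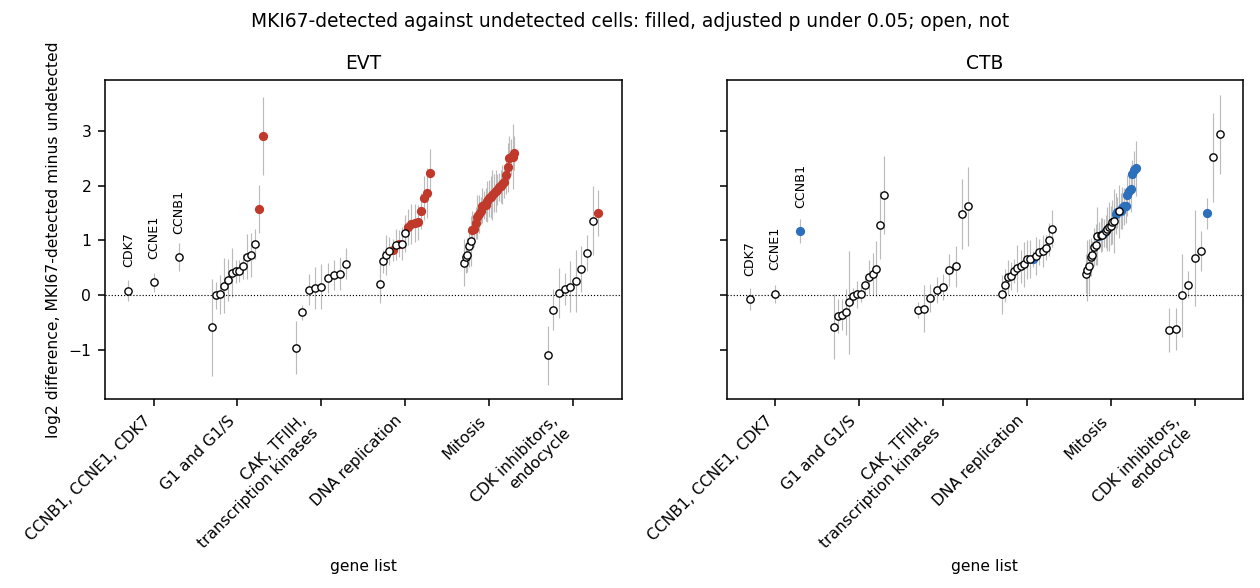
Fitted log2 difference between MKI67-detected and undetected cells (y axis, bars SE) in EVT (left, 20 libraries) and CTB (right, 12 libraries) for each tested gene of 6 lists (x axis), filled where the adjusted p is under 0.05. In EVT 26 of 31 mitosis genes are filled and none of CCNB1, CCNE1 and CDK7, and in CTB CCNB1 (1.18) is.

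Across single EVT cells the 3 genes followed each other more than they followed MKI67. In 401 EVT cells thinned to one depth, Spearman's rho was 0.68 between CCNB1 and CCNE1, 0.67 between CCNB1 and CDK7 and 0.59 between CCNE1 and CDK7. Between MKI67 and CCNB1 it was 0.26, with CCNE1 0.20 and with CDK7 0.14, against 0.46 between MKI67 and TOP2A. In 529 CTB cells the pairs among the 3 genes gave 0.11, 0.17 and 0.12, and CCNB1 with MKI67 0.34. In 1113 EXMC cells CCNB1 with MKI67 gave 0.45 and in 211 Mesoderm cells 0.59, with 0.13 and 0.08 for CCNB1 with CCNE1. Within each cluster given here the 3 pairs had lower coefficients than over all EVT cells. The part of differences between clusters in the coefficients over all EVT cells was not tested. Within the 125 thinned cells of cluster 13 the 3 pairs gave 0.13, 0.26 and 0.05, and within the 84 of cluster 19 they gave 0.19, 0.43 and 0.36. Within the 63 of cluster 23 they gave 0.55, 0.30 and 0.07, and within the 64 of cluster 7 they gave 0.24, 0.08 and 0.16. CCNB1 with MKI67 gave 0.30 in cluster 13, above all 3 pairs there, and -0.20 in cluster 19. These coefficients are descriptions, since cells share libraries and embryos.

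By embryonic day, CCNB1 in EVT was high at E18, E20 and E24 and low at E23 and E25. It was 530.1, 1044, 1139 and 1017 CPM in the 4 libraries of E18. The 6 libraries of E20 ran from 780 to 1296 CPM (median 916 CPM), and the 6 of E23 from 250.7 to 598 CPM (median 343 CPM). The 2 of E24 held 1112 and 663 CPM, and the 3 of E25 370, 104 and 133 CPM. The libraries of E23 overlapped with E18 and not with E20 or E24, and those of E25 lay below every library of E18, E20 and E24.

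CCNE1 and CDK7 were less clearly split by day. CCNE1 in EVT averaged 537 ± 125 CPM at E18 (SD, n = 4), 857 ± 297 at E20 (n = 6), 380.1 ± 147 at E23 (n = 6), 809 ± 264 at E24 (n = 2) and 168 ± 85.4 at E25 (n = 3). CDK7 averaged 442 ± 111, 717 ± 135, 313 ± 130.0, 397 ± 99.2 and 188 ± 144 CPM over the same days. For CCNE1 the libraries of E24 (622 and 996 CPM) lay above all of E23 (178 to 531 CPM), while those of E18 (361 to 636 CPM) overlapped with E23. For CDK7 the libraries of E20 (559 to 943 CPM) lay above all of the other days, and both of E24 (327 and 467 CPM) lay inside the range of E23 (159 to 537 CPM). MKI67 in EVT had means of 81.5 ± 32.6, 112 ± 14.8, 114 ± 65.8, 34.4 ± 12.8 and 56.1 ± 51.2 CPM. At E24, where CCNB1 averaged 887 ± 318 CPM, both MKI67 values (25.3 and 43.4 CPM) lay below all 6 of E20 (101 to 140 CPM).

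A slope of day over the 21 EVT libraries fell for CCNB1, by 0.22 ± 0.06 per day on the log2 scale (edgeR quasi-likelihood test, adjusted p = 0.0374). In this fit 6.88% of 9842 genes passed, 4.27% as rising and 2.61% as falling. CDK7 (-0.18 ± 0.06, adjusted p = 0.0708) and CCNE1 (-0.14 ± 0.07, adjusted p = 0.262) did not pass in the same edgeR fit. The CCNB1 call was lost without library 8 of E23, 16, 17 or 22 of E25, 37 or 38 of E20, or 41 or 42 of E18 (slopes -0.22 to -0.19, edgeR adjusted p 0.0505 to 0.0729). With embryos in place of libraries the slope was -0.14 (edgeR adjusted p = 0.834, 6 embryos), where 0 genes passed and 767 had an unadjusted p under 0.05. With the library code as a term, the slope rests on E24 against E25 within code 20210727 and was -2.01 (edgeR adjusted p = 0.0434).

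The clusters of EVT changed with day beside these levels. Clusters 13 and 19 made up 33.3 to 75.0% of EVT cells per library at E18, 40 to 76.0% at E20, 1.89 to 16.7% at E23, 19.1 to 58.6% at E24 and 0 to 20% at E25. At E23, cluster 7 made up 70.0 to 95.8%, the EXMC markers summed to 1440 to 8965 CPM, and median depth was 3015 to 48092 counts per cell, against 68804 to 313480 at E20. At E24, library 20 held 1621 CPM of EXMC markers with 10.3% of its cells in cluster 18, and library 21 held 15790 CPM with 61.7%, beside CCNB1 at 1112 and 663 CPM. At E25, cluster 18 made up 73.3 to 100% and the EXMC markers summed to 13496 to 19685 CPM, against 379 to 3127 CPM at E18 and 216 to 4525 CPM at E20. Without cluster 18 the CCNB1 slope was -0.14 (edgeR adjusted p = 0.365). Within cluster 13 the levels did not run in the order of the days: CCNB1 was 1258 CPM in the E18 embryo, 1289 in E20, 639 in E22, 858 in E23, 1436 in E24 and 1009 in E25, from 39, 15, 6, 9, 54 and 5 cells. CDK7 in cluster 13 ran from 428 to 855 CPM over the same embryos and CCNE1 from 494 to 1399 CPM.

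In CTB, CCNE1 was the only one of these genes with a slope of day past the threshold, over libraries but not over embryos. It stood at 581 CPM in the 1 library of E16, averaged 416 ± 35.6 CPM at E18 (n = 3), 443 ± 118 at E20 (n = 6) and 169 ± 26.2 at E23 (n = 5), was 358 CPM in the 1 library of E24 and averaged 222 ± 63.8 at E25 (n = 5). Its slope was -0.14 ± 0.04 (edgeR, 21 libraries, adjusted p = 0.0335), in a fit where 3.36% of 10794 genes passed, 1.59% as falling. The call was lost without library 5 of E16 (edgeR adjusted p = 0.0591), 16 of E25 (0.0628) or 22 of E25 (0.0647), and over 8 embryos (0.747). CCNB1 (-0.06 ± 0.04, adjusted p = 0.378) and CDK7 (0.02 ± 0.03, adjusted p = 0.773) did not pass in CTB by edgeR. The difference between the slopes, EVT minus CTB, was -0.17 ± 0.06 for CCNB1 (edgeR, 18 libraries, adjusted p = 0.251), -0.01 ± 0.06 for CCNE1 (0.989) and -0.22 ± 0.06 for CDK7 (0.111), with 0.246% of 13396 genes past the threshold, 0.0821% higher and 0.164% lower in EVT.

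Among other genes of the cycle, the shares past the threshold are read beside the 6.88% of all genes in EVT and 3.36% in CTB. With counts summed per embryo 0 genes passed in either class, so the calls below hold over libraries only. In EVT the cyclin CCND2, which stood at 44.8 CPM in EVT and 332 CPM in EXMC, rose (0.53 ± 0.11 per day). The part of EXMC RNA in this rise was not tested. In the same class RB1 (-0.29 ± 0.07), CCND3 (-0.17 ± 0.05), RRM2 (-0.36 ± 0.08), KIF23 (-0.28 ± 0.08) and the cytokinesis scaffold ANLN (-0.24 ± 0.07) fell. With CCND2 these are 3 of 13 G1 genes, 1 of 17 replication genes and 2 of 32 mitosis genes. In CTB 5 of 32 mitosis genes fell, CDC25B (-0.22 ± 0.06), CENPE (-0.18 ± 0.05), CCNA2 (-0.16 ± 0.04), CDC20 (-0.15 ± 0.04) and MKI67 (-0.13 ± 0.04). RRM2 (-0.25 ± 0.05) and CDK2 (-0.22 ± 0.05) also fell in CTB, and FBXW7, the receptor of the ligase that degrades cyclin E (0.30 ± 0.07), and CCND2 (0.37 ± 0.10) rose. No gene of the CDK7 list and no inhibitor passed in either class (0 of 9 and 0 of 10 in EVT, 0 of 9 and 0 of 11 in CTB).

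**Figure D5:**
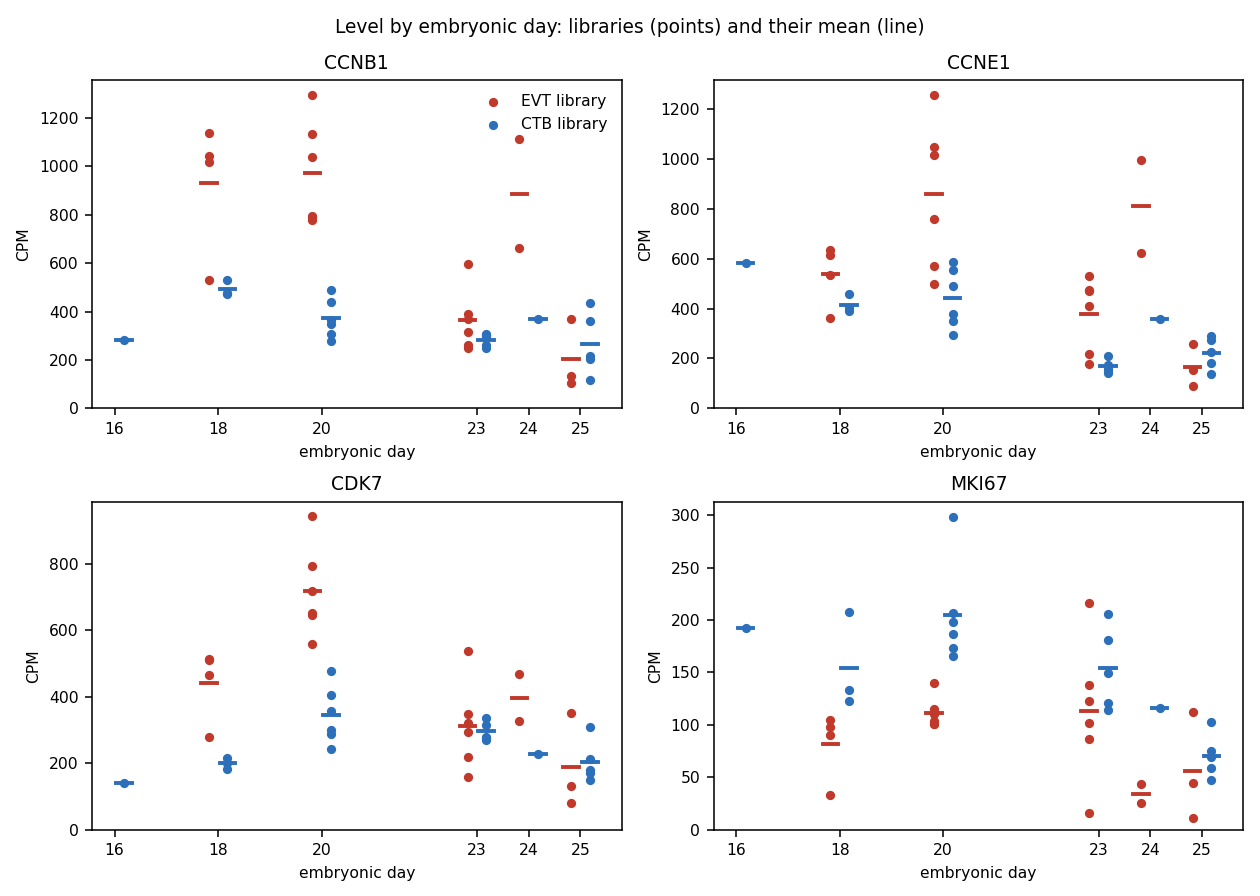
Level in CPM (y axis) of CCNB1, CCNE1, CDK7 and MKI67 by embryonic day (x axis), with a point for each library of at least 10 cells and a line for the mean, EVT in red to the left and CTB in blue to the right of each day. EVT levels of CCNB1 are high at E18, E20 and E24 (means 932, 972 and 887 CPM) and low at E23 and E25 (365 and 202 CPM).

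Over the 118 sums of at least 10 cells of 1 class in 1 library, likeness to each gene was measured by Pearson's r of log2(CPM + 1) among 7772 genes. CCNE1 was most like PPARG, a nuclear receptor needed for the placenta (r = 0.90), WNT7A, a WNT ligand (0.90), APOBR, a lipoprotein receptor (0.89), ADAP2 (0.88) and GCM1, a transcription factor of trophoblast differentiation (0.88), with CDK7 at rank 7 (0.88). CDK7 was most like PPARG (0.89), CCNE1 (0.88), ANXA4 (0.87), CYB561A3 (0.87) and BZW2 (0.87). CCNB1 was most like CYRIB (0.77), LCP1, an actin-bundling protein (0.77), MGST1 (0.74), HIP1R (0.73) and ENSMFAG00000001740 (0.73), with CDK7 at rank 10 (0.72) and CCNE1 at rank 29 (0.68). Likeness to MKI67 was 0.53 for CCNB1, 0.07 for CCNE1 and 0.09 for CDK7. CCNB1, CCNE1 and CDK7 were chosen for high levels in EVT where other mitosis genes were not high, and these sums hold those class levels. Their likeness to each other and their lower likeness to MKI67 are thus partly set by the choice. The values cannot test whether the genes go together. These sums also share libraries and embryos, and the values are a description.

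CCNB1 and CDK7 are neighbours in the genome. In the RefSeq gene table of the assembly T2T-MFA8v1.1, which may not be the build of the counts, 2 protein-coding genes lie between them: CENPH and KGD4. CENPH, a protein of the kinetochore, was 7.91 CPM in EVT and 12.7 CPM in CTB (log2 -0.27 ± 0.27), and KGD4 had no row under that name. On the other side of CCNB1, SLC30A5, a zinc transporter, was highest in EVT of all classes, at 88.2 CPM against 36.2 CPM in CTB (1.43 ± 0.15), and PIK3R1, a regulatory subunit of PI3-kinase, stood at 39.7 CPM in EVT and 23.9 CPM in CTB (0.85 ± 0.23). Beyond CDK7, AK6 (-0.66 ± 0.16) and MARVELD2 (-1.11 ± 0.28) were lower in EVT, and RAD17 (-0.25 ± 0.16) did not pass. Of the 10 nearest genes of CCNE1, 5 had a row, and none was highest in EVT. POP4 (-0.42 ± 0.20) and URI1 (0.23 ± 0.22) did not pass, and TSHZ3, at 3.87 CPM in EVT and 0.707 CPM in CTB, was higher (2.39 ± 0.58) with its highest level in EXMC (32.2 CPM).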

How the data were processed

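The deposited table holds raw counts per gene and cell, with no normalization by the authors. The total count that the deposited annotation gives for a cell equals its column sum in all 3682 cells. Per the submitters' processing notes the tools were cutadapt 1.15 for trimming, STAR 2.6.0a for alignment and HTSeq 0.10.0 for counting. Classes, fine clusters and embryos are the authors', per the file headers. The genome build is not given in the sources used here. Whether a count is a read or a molecule was not stated there either. Doublets were not searched for. No cell name occurred more than once.

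CCNB1, CCNE1 and CDK7, the gene lists and the tests were chosen with earlier results of these data known. Besides these genes and MKI67, the text names up to 4 genes per list, test and direction with the smallest adjusted p under 0.05, the 5 genes most like each by Pearson's r (mean of at least 10 CPM, pseudocount 1) and the 5 nearest protein-coding genes on each side. Further partners and paralogs (CCNH, CCNB2, CDK1, CCNE2, RRM2 and others) were named after their values were seen.

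Counts were summed per library and class (at least 10 cells) or per library, class and MKI67 status (at least 5 cells each). They were tested with edgeR 4.0.16 in R 4.3.3 (filterByExpr, TMM, quasi-likelihood F test, Benjamini-Hochberg over all genes). Day was a number in 42 libraries with agreeing labels. Comparisons within libraries had the library as a block. CPM in the text are without TMM. Slopes used dispersions from estimateDisp, and fits with a library block used dispersions estimated in the quasi-likelihood fit. For shares at one depth, each cell was thinned to 19000 counts, which left out 347 cells, 165 of EVT and 20 of CTB. DESeq2 1.42.0 and other settings were alternatives. The steps were tested on simulated data. Libraries of 1 embryo are not separate animals, so p-values measure the spread between libraries, which mixes that within and between embryos. Sex goes with embryo and was not a term.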

Additional observations from a re-analysis of the deposited data

Results flagged for a closer look

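MKI67 in the EVT cells of E20 was 140 CPM in library 37, against 101 to 115 CPM in the other 5 libraries. In the CTB cells of E20 it was 298 CPM in library 38, against 166 to 207 CPM in the other 5. Both stood out by the gap to the nearest library, relative to the range of the 6 libraries. Such gaps arise by chance in about 1 of 20 groups, and 24 groups of libraries were checked over CCNB1, CCNE1, CDK7 and MKI67. No library stood out in this way for CCNB1, CCNE1 or CDK7.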

How the results depend on the processing

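The genes were chosen by their EVT levels in these counts, so the ranges of those levels are descriptions. Without any 1 of 19 libraries the log2 difference between EVT and CTB ran from 0.80 to 0.96 for CCNB1, 0.83 to 0.96 for CCNE1 and 0.66 to 0.80 for CDK7, and their pooled EVT levels without any 1 library were 802 to 878, 665 to 753 and 517 to 562 CPM. In the MKI67 comparison of CTB, CCNB1 kept its call under all 8 alternatives. Slopes of day depend most on the setting, and the causes were not tested. Leaving out fine cluster 18, summing per embryo for the class and MKI67 comparisons, and trended dispersions were chosen after seeing the data. MKI67 or TOP2A against neither could not be fitted in CTB alone, where 2 libraries were left. Depth limits the MKI67 split with thinned cells, which leaves out cells below 19000 counts: 165 of 566 EVT cells and 20 of 549 CTB cells. No paired analysis was possible between days because groups of days share no library numbers, while comparisons within libraries had the library as a block.

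For the slope of day in EVT, the count of genes past the threshold, 677, became 2047 with no filter, 1175 with DESeq2, 82 without cluster 18, 1378 with at least 20 cells, 56 with the library code as a term and 0 per embryo (379 to 806 without 1 library, least without library 17 and 423 without library 22, both of E25). CCNB1 lost its call without cluster 18 (-0.14), with at least 20 cells (-0.13, adjusted p = 0.392 by edgeR) and per embryo (-0.14), and ran from -0.29 to -0.19 without 1 library. CDK7 passed with no TMM factor (-0.21), no filter (-0.20), DESeq2 (-0.16) and at least 20 cells (-0.26), and ran from -0.21 to -0.15 without 1 library, passing without library 9 of E23, 20 of E24 or 40 of E18. CCNE1 ran from -0.21 to -0.11, passing without library 20 of E24 (edgeR adjusted p = 0.0485).

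For the slope in CTB, 363 genes became 1200 with no filter, 795 with DESeq2, 2445 with at least 20 cells, 85 with the library code and 0 per embryo, where 791 had an unadjusted p under 0.05 (192 to 741 without 1 library: 741 without 5 of E16, and 225, 208, 192 and 222 without 15, 16, 17 and 22 of E25). CCNE1 lost its call with at least 20 cells (-0.11), the library code (-0.62) and per embryo (-0.10), with -0.16 to -0.13 without 1 library. CDK7 turned to -0.013 with no TMM factor, -0.061 with at least 20 cells and -0.42 with the library code (-0.0034 to 0.035 without 1 library), and CCNB1 ran from -0.082 to -0.040. For EVT minus CTB, 33 genes became 146 with DESeq2, 2 without cluster 18, 15 with trended dispersions, 51 with at least 20 cells and 3 with the library code (10 to 59 without 1 library: 59 and 51 without 20 of E24 and 43 of E18, and 21, 21, 10 and 16 without 10 of E23 and 16, 17 and 22 of E25). CCNE1 turned to 0.0072 with DESeq2 size factors, 0.18 without cluster 18 and 0.060 with at least 20 cells (-0.054 to 0.063 without 1 library). CDK7 passed with DESeq2 (-0.21) and ran from -0.26 to -0.17, and CCNB1 from -0.22 to -0.13, without 1 library.

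For EVT against CTB, 4859 genes became 1120, 58, 2750 and 1116 within the 4 library codes that could be fitted alone, which hold 5, 3, 6 and 3 of the libraries (4590 to 4929 without 1 library).

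For MKI67-detected against undetected cells in EVT, 296 genes became 491 with no TMM factor, 446 with no filter, 489 with DESeq2, 103 with trended dispersions and 646 with at least 2 MKI67 counts (216 to 365 without 1 library). CCNB1 passed with no filter (0.75, edgeR adjusted p = 0.00885) and ran from 0.57 to 0.82 without 1 library. CDK7 turned to -0.046 with DESeq2 size factors, -0.0064 with DESeq2 and -0.094 per embryo (0.0073 to 0.18 without 1 library), and CCNE1 ran from 0.16 to 0.34. In CTB, 74 genes became 122 with no TMM factor, 201 with no filter and 462 with DESeq2 (36 to 126 without 1 library: 126 without 36 and 45 without 37 of E20, 49 without 10 of E23, 45 without 22 of E25 and 36 without 27). CCNE1 turned to -0.060 with DESeq2 size factors, -0.035 with DESeq2 and -0.0096 with thinned cells (-0.073 to 0.10 without 1 library). CDK7 turned to 0.022 with no TMM factor, 0.012 with no filter, 0.074 with trended dispersions and 0.039 per embryo (-0.17 to 0.11 without 1 library), and CCNB1 ran from 1.08 to 1.40. For EVT minus CTB, 0 genes became 4 with no filter, 27 with DESeq2, 4 with at least 2 MKI67 counts, 43 with thinned cells and 3 per embryo (0 to 2 without 1 library). CCNE1 turned to -0.37 with MKI67 or TOP2A (-0.0089 to 0.29 without 1 library). CDK7 turned to -0.019 with DESeq2 size factors, -0.025 with DESeq2, -0.18 with MKI67 or TOP2A and -0.22 per embryo (-0.083 to 0.19), and CCNB1 ran from -0.96 to -0.54.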
